A study of Rattus norvegicus with 15 samples.

Results

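Immediate early genes are switched on by kinase cascades within minutes of a stimulus, without new protein synthesis, and the genes described here are 34 such genes and stimulus-response genes that belong with them, followed in the gastrocnemius muscle of growing rats on a low-protein diet. Members were chosen by gene symbol: a probe set counted when its only symbol was one of the 34. Of the 34 members, 33 were measured, by 58 probe sets, among 14217 genes and 31042 probe sets in all. Btg2 was not analysed here. Total RNA was hybridized to Affymetrix GeneChip arrays of the rat genome, and each rat gave 1 array. Per the study's methods, rats were selected for the arrays because their body weight was close to their group's average.

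All rats were male Wistar rats, bought at 3.5 weeks of age and kept for 3 days on 15% casein before the diets began. CN rats (n = 4) then ate 15% casein for 4 weeks and LP rats (n = 4) 8% casein for 4 weeks. CN-R rats (3 arrays, replicates 1, 2 and 4) and LP-R rats (n = 4) followed the same 2 diets for 4 weeks and were sampled 8 weeks later, on day 84. Every rat, control or restricted, was fasted for 16 h before sampling. Isoflurane anaesthesia is given for CN and LP, and the anaesthesia of CN-R and LP-R is not given in the sources used here. The study's methods returned LP-R rats to 15% casein for the last 8 weeks, whereas the sample labels keep them on 8% casein until day 84. CN-R replicate 4 is a control by its title and description but carries protein restriction in its treatment field, and it was kept in CN-R. CN-R replicate 3 was not used here.

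The proteins encoded by these genes fall into a few roles. AP-1 subunits (Fos, Fosb, Fosl1, Fosl2, Jun, Junb, Jund), early growth response factors (Egr1, Egr2, Egr3), Krüppel-like factors (Klf2, Klf4, Klf6, Klf10), Myc and Maff bind DNA and pass the stimulus on to later genes. Dusp1, Dusp5 and Dusp6 remove phosphate from MAP kinases, Zfp36 and Zfp36l1 speed the decay of messages with AU-rich elements, Nfkbia holds NF-κB in the cytoplasm and Socs3 restrains cytokine receptors, so that the response is brief. In skeletal muscle, contraction and calcium are among the stimuli that turn such genes on.

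Serum response factor, through the CArG box, and CREB, through the cAMP response element (CRE), are the best known regulators of these promoters, so windows from 250 bases before to 50 bases after the RefSeq start (GRCr8) were searched on both strands. A window was matched for 26 of 34 members. Fos, Jun, Egr3, Klf2, Klf10, Myc, Ier3 and Csrnp1 were not matched. The full CRE (TGACGTCA) stood in 6 of 26 windows (23.1%; 1.83% of all 33469 windows): those of Jund, Ier2, Btg2, Dusp1, Maff and Plk2. Its core (TGACG), which the full CRE contains, stood in 13 windows (50%, against 21.2% of all). A CArG box was found for Egr1, Egr2, Klf6, Zfp36 and Dusp5, which is 19.2% of the members and 1.64% of all windows. The EGR motif (GCGTGGGCG) was found for Jund and Maff (7.69% against 0.544%) and the TATA motif (TATAAA) in 8 windows (30.8% against 14.2%). AP-1 letters (TGAGTCA or TGACTCA) were in 0 of 26 windows and in 4.63% of all. A match is a description of letters and not a site of binding. The windows of 4 members are printed below because they hold the 2 kinds of element in members that rank products called: Jund (chr16:18769722-18770021, minus strand) with a CRE that starts 221 bases before the start site, Egr1 (chr18:26736828-26737127, plus strand) with CArG boxes 105 and 83 bases before it, Zfp36 (chr1:92799059-92799358, minus strand) with a CArG box 32 bases before it, and Plk2 (chr2:43702286-43702585, plus strand) with a CRE 66 bases before it. Klf6, also called, has a CArG box 201 bases before its start site, and its window is not printed. Each printed window runs 5′ to 3′ on the strand of its gene, and capitals mark the motifs searched.
Jund: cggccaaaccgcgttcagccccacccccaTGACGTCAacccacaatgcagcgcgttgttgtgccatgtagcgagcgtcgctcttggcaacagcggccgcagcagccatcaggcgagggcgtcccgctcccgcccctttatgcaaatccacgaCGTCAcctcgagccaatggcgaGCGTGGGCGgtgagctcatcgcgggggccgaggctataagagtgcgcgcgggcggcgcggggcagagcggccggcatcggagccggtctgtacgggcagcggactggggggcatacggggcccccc
Egr1: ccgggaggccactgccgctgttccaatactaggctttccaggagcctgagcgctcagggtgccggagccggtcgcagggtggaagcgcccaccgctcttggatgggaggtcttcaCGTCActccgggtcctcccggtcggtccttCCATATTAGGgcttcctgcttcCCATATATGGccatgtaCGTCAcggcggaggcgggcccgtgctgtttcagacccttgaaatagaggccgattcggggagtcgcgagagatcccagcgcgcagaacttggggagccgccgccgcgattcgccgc
Zfp36: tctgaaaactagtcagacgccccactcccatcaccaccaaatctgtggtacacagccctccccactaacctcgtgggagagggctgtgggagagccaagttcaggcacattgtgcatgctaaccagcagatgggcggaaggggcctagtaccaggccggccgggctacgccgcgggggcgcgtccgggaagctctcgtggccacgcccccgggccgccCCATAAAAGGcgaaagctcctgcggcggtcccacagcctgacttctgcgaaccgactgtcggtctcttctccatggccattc
Plk2: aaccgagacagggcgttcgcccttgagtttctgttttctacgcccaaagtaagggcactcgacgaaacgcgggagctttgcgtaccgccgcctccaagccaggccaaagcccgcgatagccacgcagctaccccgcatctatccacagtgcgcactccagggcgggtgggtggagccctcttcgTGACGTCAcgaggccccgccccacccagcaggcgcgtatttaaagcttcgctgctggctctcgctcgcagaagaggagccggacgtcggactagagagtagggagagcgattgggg

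The values are log2 signals that the authors made with FARMS, a summary of the probes of a probe set that draws a probe set toward a constant when its probes do not vary together. Early arrays (CN and LP) and late arrays (CN-R and LP-R) were summarized apart, so each restricted group was set only against its own control. A probe set was taken as varying when its SD over the arrays of a comparison was over 0.01. By this measure 27 members varied in the early comparison, 26 in the late one and 25 in both. Dusp5, Egr3, Fosl1, Fosl2 and Socs3 were nearly constant in both, Junb in the early one, and Dusp6 and Plk2 in the late one. Where a member has several probe sets, its value is that of the probe set with the highest mean signal, unless another is named. The tissue label held: muscle fiber markers such as Acta1, the actin of skeletal muscle, had log2 signals near the top of the scale (14.07 on each early array). In bulk tissue, fewer cells of a type and less RNA per cell cannot be told apart.

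Calls were made with rank products, the method the study names, which ranks the change of every probe set in each pair of arrays and estimates a proportion of false positives (pfp). A gene was called when at least 1 of its probe sets had a pfp up to 0.05. By the brightest probe set, 2423 of the 14217 genes varied early and 1755 late, against 27 and 26 of the 33 members. The shares of all genes given beside the calls thus include many nearly constant genes. They do not set the members against varying genes alone. The run here does not repeat the study's late counts, as given below. Rank products takes all probe sets to vary alike, and the immediate early genes did not: over the varying members the median of the widest range within a diet was 0.664 on the log2 scale early and 0.683 late, against 0.236 and 0.239 over all varying genes. Limma, whose test uses the spread of each gene, and an exact permutation test on single members (two-sided, unadjusted, smallest p possible 0.0286 in both comparisons) are therefore given beside it.

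After 4 weeks of protein restriction the immediate early genes were called in both directions. Rank products called 10 of 33 members higher in LP (30.3%, against 2.54% of all genes): Fosb, Jun, Jund, Egr1, Ier5, Klf6, Myc, Rgs4, Plk2 and Homer1. It called 5 lower (15.2%, against 2.48% of all genes): Fosb, Homer1, Zfp36, Nfkbia and Tiparp. Fosb and Homer1 are in both lists, and 20 members were not called. The study itself lists Egr1, Homer1, Myc, Rgs4, Tiparp and Plk2 from these rats. All calls here come from the study's own arrays, so none is independent evidence of a direction. By limma 0 members passed an adjusted p of 0.05 (0% of all genes passed), and 0 of the 27 varying members had an unadjusted limma p under 0.05 at their brightest probe set, although Jund at 1387762_s_at and Homer1 at 1370656_a_at and 1368319_a_at did. When each probe set was centred before the permutation, rank products called 12 members higher and 5 lower, against 2.81% and 2.61% of all genes.

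The changes were small beside the differences between rats on the same diet. Of the 27 varying members, 18 were higher by their mean in LP and 9 were lower, between −0.17 and 0.30 on the log2 scale, with a median of 0.10. Over all 2423 varying genes the median was 0.03 and 63.2% had a higher mean. In 27 of 27 members the widest range within a diet was larger than the change, as it was in 96.5% of all varying genes. Only 1 of the 27, Jund, changed by over 2 SE. The values of LP and CN overlapped for each of the 27, whereas 5.98% of all varying genes lay wholly above the controls and 1.82% wholly below.

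**Figure D1:**
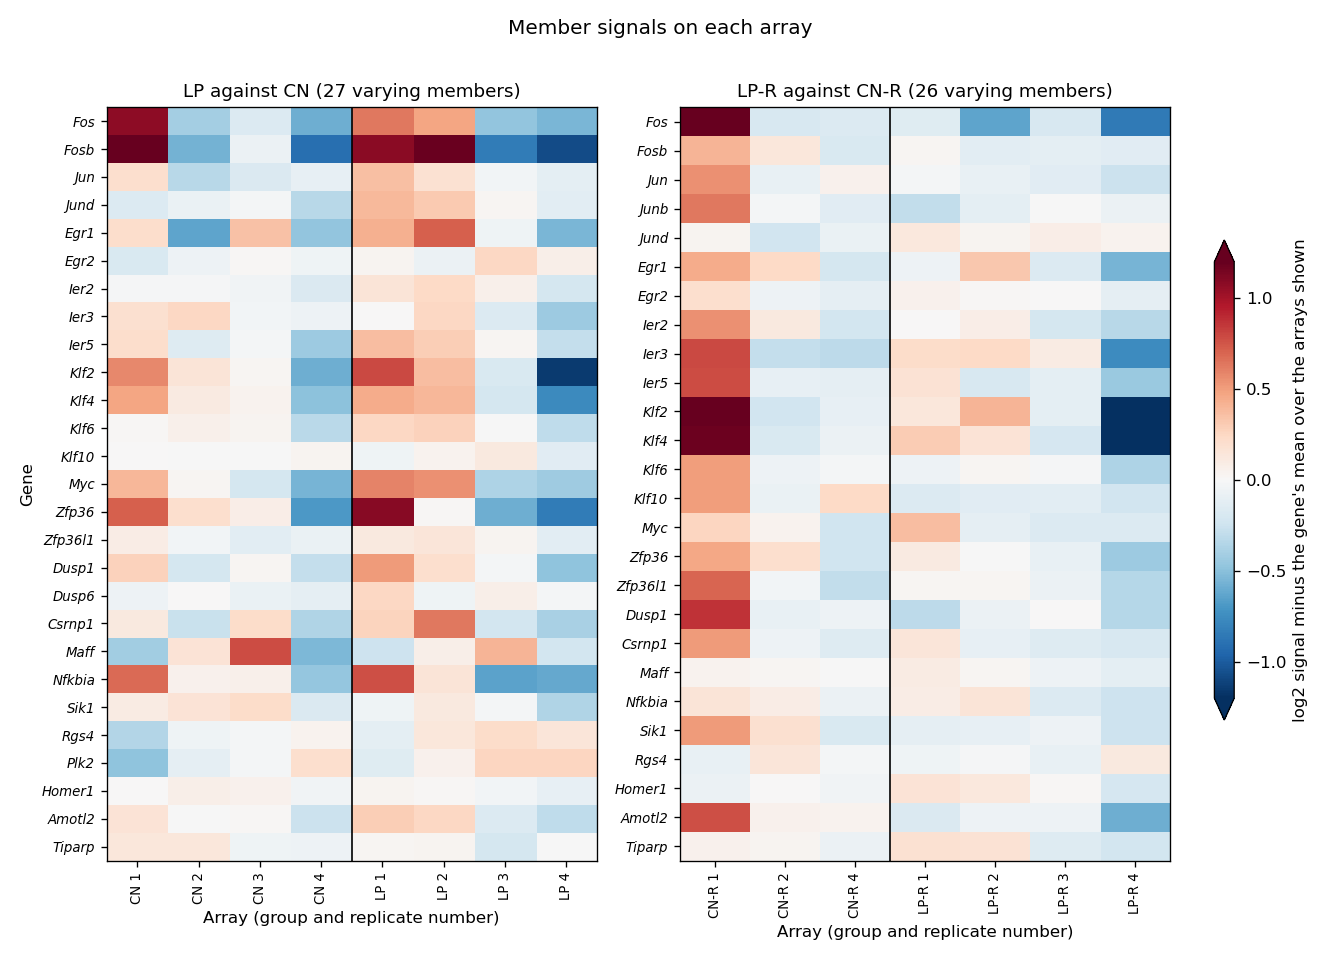
Log2 signal of each varying member on each array, minus that gene's mean over the arrays of its comparison, for the early arrays (27 members) and the late arrays (26 members). Red is above and blue below the gene's mean. LP replicate 1 and CN-R replicate 1 are mostly red (medians 0.26 and 0.51), and LP replicate 4, CN replicate 4 and LP-R replicate 4 are mostly blue (medians −0.30, −0.29 and −0.25).

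Among the AP-1 subunits, Jund had the most even difference. Its log2 signals were 10.64, 10.73, 10.78 and 10.47 in CN replicates 1 to 4 and 11.19, 11.12, 10.83 and 10.68 in LP replicates 1 to 4 (probe set 1393138_at). All LP rats but replicate 4 were above all CN rats. The means of 10.65 ± 0.13 and 10.96 ± 0.24 (SD, n = 4 each) differ 1.23-fold, by 0.30 on the log2 scale (SE 0.14, pfp 0.00729, exact permutation p = 0.0857, limma adjusted p = 0.682). The dimmer Jund probe set, 1387762_s_at, read 6.34, 6.35, 6.43 and 6.34 in CN and 6.71, 6.68, 6.51 and 6.56 in LP. There every LP rat was above every CN rat, at a change of 0.25 (SE 0.05, pfp 0.00656, exact permutation p = 0.0286, limma adjusted p = 0.525). Jund was the 1 member called higher when any of the 8 arrays was left out.

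Jun, the partner of Fos in the classical AP-1 dimer, read 11.14, 10.61, 10.76 and 10.84 in CN and 11.30, 11.12, 10.90 and 10.82 in LP. CN replicate 1 reached the upper LP values and the groups overlapped. The change was 0.20 (SE 0.16, 1.15-fold, pfp 0.035, exact permutation p = 0.257), and the other 2 Jun probe sets gave 0.22 and 0.19. The call of Jun was lost without LP replicate 1 or LP replicate 2.

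Fosb had the widest spread of the AP-1 subunits, at 8.49, 6.73, 7.22 and 6.39 in CN and 8.37, 8.48, 6.45 and 6.22 in LP. LP replicates 1 and 2, along with CN replicate 1, lay over 1 log2 unit above the other 5 rats, whatever their diet. The mean difference was 0.17 (SE 0.76, exact permutation p = 0.943), yet Fosb passed in both directions, with a pfp of 0.0288 for higher and 0.0499 for lower. Without 1 array in turn the change ran from −0.19 to 0.60. The higher call was lost without LP replicate 1, LP replicate 2 or CN replicate 4, and the lower call without CN replicate 1, 2 or 3 or LP replicate 3 or 4.

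Fos itself was not called. Its log2 signals of 11.55, 10.07, 10.31 and 9.90 in CN and 11.11, 10.95, 10.004 and 9.93 in LP set the same 3 rats above the others, and the means of 10.46 ± 0.75 and 10.50 ± 0.62 (SD, n = 4 each) differed by 0.04 (SE 0.48, exact permutation p = 0.943).

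**Figure D2:**
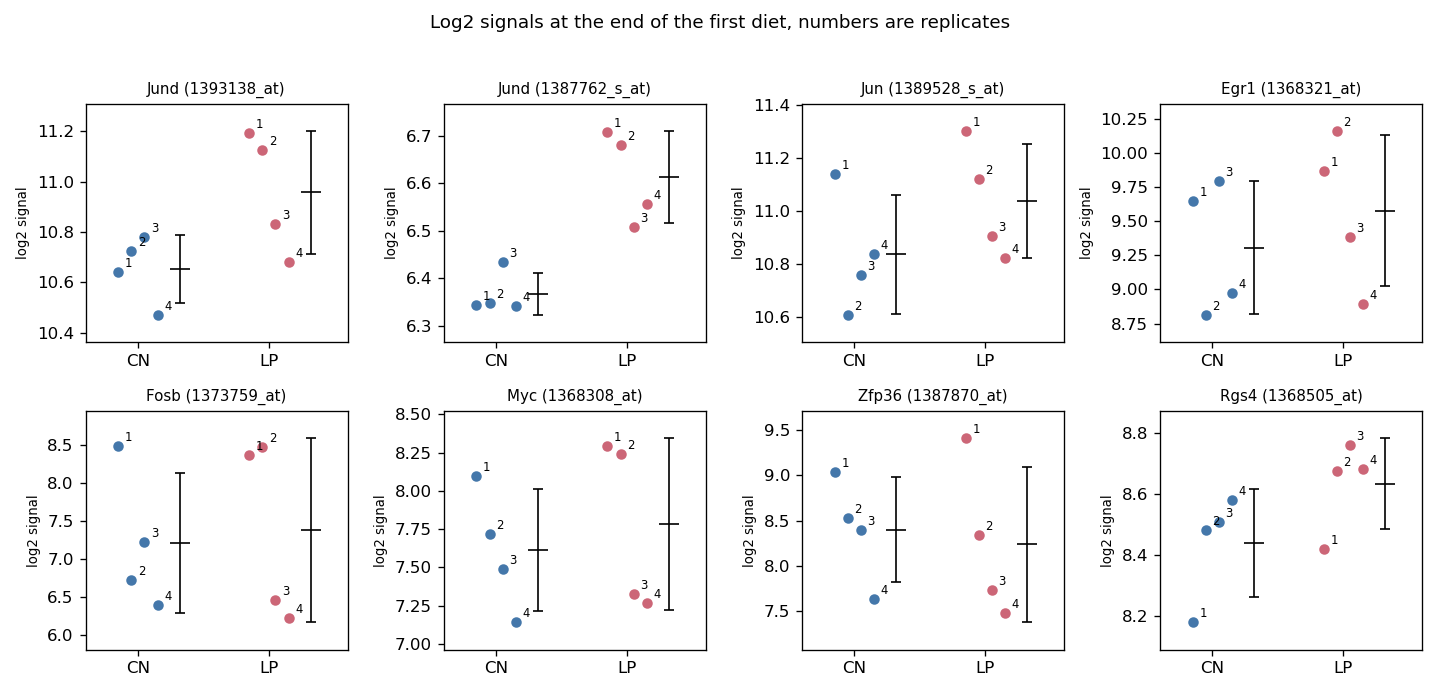
Log2 signal of 7 members, with both Jund probe sets, on each CN and LP array. Points carry the replicate number, and the bar and whisker give the mean ± SD (n = 4 a group). The dimmer Jund probe set is the 1 panel in which all LP points lie above all CN points, and in Fosb CN replicate 1 and LP replicates 1 and 2 stand above the rest.

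The zinc-finger factors and Myc moved little against their spread. Egr1, which is induced by growth factors and contraction, read 9.65, 8.81, 9.79 and 8.97 in CN and 9.87, 10.16, 9.39 and 8.90 in LP. The groups overlapped over most of their range. The change was 0.27 (SE 0.37, 1.21-fold, pfp 0.0134, exact permutation p = 0.457), and the call was lost without LP replicate 1, LP replicate 2 or CN replicate 2.

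Klf6 was called higher through probe set 1388986_at, which read 8.71, 8.73, 8.72 and 8.38 in CN and 9.09, 8.91, 8.76 and 8.34 in LP (change 0.14, SE 0.18, pfp 0.0428, exact permutation p = 0.457). The other 2 Klf6 probe sets were not called, at 0.11 and −0.01. Replicate 4 was lowest in both diets, and the call was lost without CN replicate 4 or LP replicate 1, 2 or 3. Myc, a transcription factor that drives cell growth, read 8.10, 7.72, 7.49 and 7.14 in CN and 8.29, 8.24, 7.33 and 7.27 in LP. LP replicates 1 and 2 were above all CN rats and LP replicates 3 and 4 lay within the lower CN values. The change of Myc was 0.17 (SE 0.34, pfp 0.0305, exact permutation p = 0.686), and its call was lost without LP replicate 1, LP replicate 2 or CN replicate 4.

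Ier5, an immediate early response protein, read 9.06, 8.70, 8.83 and 8.42 in CN and 9.23, 9.15, 8.88 and 8.57 in LP. The groups overlapped, with a change of 0.20 (SE 0.20, pfp 0.0257, exact permutation p = 0.343), and the call was lost without CN replicate 4 or LP replicate 1, 2 or 3. Klf2 read 10.26, 9.84, 9.72 and 9.10 in CN and 10.48, 10.06, 9.51 and 8.54 in LP, with replicate 1 highest and replicate 4 lowest in each diet and a change of −0.08 (SE 0.48). Klf10 read 9.87, 9.86, 9.86 and 9.90 in CN and 9.82, 9.90, 9.99 and 9.73 in LP (change −0.01, SE 0.06). Klf2, Klf4, Klf10, Egr2, Maff, Csrnp1, Ier2 and Ier3 were not called, with changes from −0.17 for Ier3 to 0.15 for Csrnp1.

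Among the genes that end the response, Zfp36 and Nfkbia were called lower and none higher. Zfp36, tristetraprolin, read 9.04, 8.53, 8.40 and 7.64 in CN and 9.41, 8.34, 7.73 and 7.48 in LP. Both diets spread over more than 1 log2 unit, with replicate 1 highest and replicate 4 lowest in each. The change was −0.16 (SE 0.52, pfp 0.0123, exact permutation p = 0.8), and the lower call was lost without CN replicate 1, 2 or 3 or LP replicate 4. Nfkbia, the inhibitor of NF-κB, read 9.38, 8.75, 8.77 and 8.24 in CN and 9.48, 8.86, 8.06 and 8.09 in LP. LP held both the highest and the lowest rat, and the change was −0.16 (SE 0.41, pfp 0.0358, exact permutation p = 0.743). Its call remained only without LP replicate 1 or LP replicate 2. Without 1 array in turn Zfp36 ran from −0.55 to 0.09 and Nfkbia from −0.45 to 0.04. Dusp1, Dusp6, Sik1 (a kinase induced by cAMP) and Zfp36l1 were not called, with changes of 0.10, 0.12, −0.15 and 0.08.

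The signalling genes Rgs4 and Plk2 varied in a different order over the rats. Rgs4, which speeds the GTPase of Gα subunits, read 8.18, 8.48, 8.51 and 8.58 in CN and 8.42, 8.67, 8.76 and 8.68 in LP. Replicate 1 was lowest in both diets here, and 3 LP rats were above all CN rats. The change was 0.20 (SE 0.11, 1.15-fold, pfp 0.0296, exact permutation p = 0.114). Plk2, a polo-like kinase induced by serum, read 7.07, 7.44, 7.52 and 7.75 in CN and 7.40, 7.59, 7.80 and 7.80 in LP, again with replicate 1 lowest in each diet (change 0.21, SE 0.17, pfp 0.0324, exact permutation p = 0.257). Both calls were lost without CN replicate 1 or LP replicate 2, 3 or 4.

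Homer1, a scaffold of calcium signalling whose short form is an immediate early product, was called in opposite directions by different probe sets. Probe set 1370997_at read 6.26, 5.98, 6.09 and 6.03 in CN and 6.55, 6.27, 6.19 and 6.06 in LP (change 0.18, SE 0.12, pfp 0.0387, exact permutation p = 0.2). Probe set 1370454_at was also called higher, at 7.15, 7.52, 8.48 and 7.58 in CN and 7.48, 7.60, 8.43 and 7.76 in LP (change 0.14, SE 0.35, pfp 0.0399, exact permutation p = 0.686). Replicate 3 was highest in both diets for this probe set. Probe set 1368319_a_at was called lower, at 7.65, 7.62, 7.71 and 7.57 in CN and 7.54, 7.60, 7.45 and 7.49 in LP (change −0.12, SE 0.04, pfp 0.0406, exact permutation p = 0.0571). The files do not say which isoform a probe set reads, and the brightest Homer1 probe set was not called, at −0.04. The higher call of Homer1 was lost without CN replicate 2 or LP replicate 1, 2 or 3, and the lower call remained only without LP replicate 1 or 2.

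Tiparp, a mono-ADP-ribosyltransferase induced by the aryl hydrocarbon receptor, was called lower through probe set 1385407_at. It read 7.66, 7.65, 7.77 and 7.59 in CN and 7.49, 7.61, 7.29 and 7.63 in LP, so that LP replicate 3 was lowest and LP replicates 2 and 4 lay within the CN range. The change was −0.16 (SE 0.09, pfp 0.04, exact permutation p = 0.0857), and the brighter Tiparp probe set was not called, at −0.08. The call remained only without LP replicate 2 or 4. Amotl2, an angiomotin family member that binds YAP, was not called early, at 8.59, 8.43, 8.45 and 8.18 in CN and 8.73, 8.68, 8.27 and 8.13 in LP (change 0.04, SE 0.17).

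The highest and lowest values of the members gathered on a few rats. LP replicate 1 held the highest value of 10 of the 27 varying members (37%, against 15.9% of all varying genes), and LP replicate 4 the lowest value of 12 (44.4%, against 10.5%). CN replicate 4 was lowest for 7 more (25.9%, against 9.74%). Replicate 1 was above replicate 4 for 23 of 27 members in CN and for 23 of 27 in LP, while replicate 2 was above replicate 3 for 12 members in CN and for 21 in LP. Over the members the median deviation from the gene's mean was 0.14 on CN replicate 1 and −0.29 on CN replicate 4, and 0.26, 0.20, −0.03 and −0.30 on LP replicates 1 to 4. Over all varying genes the medians of these arrays lay between −0.024 and 0.026. Nothing in the labels says what a replicate number shares. Rank products over pairs within replicate numbers 1 and 2 or within 3 and 4 called 12 members higher and 4 lower (3.59% and 2.76% of all genes), with Fosb in neither direction.

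**Figure D3:**
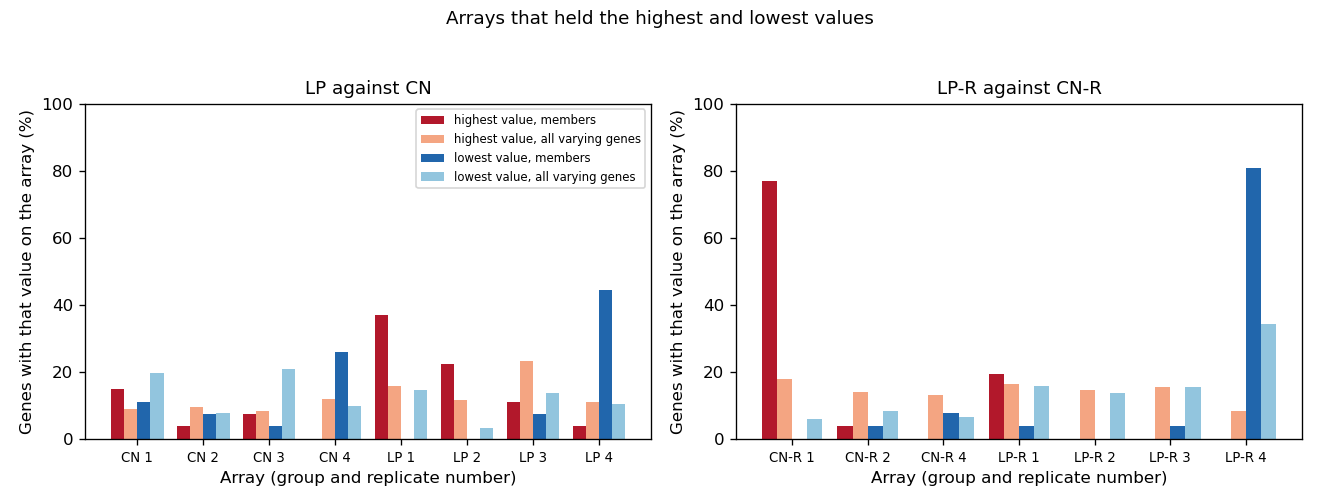
Share of the varying members and of all varying genes whose highest or lowest value lies on each array, in percent, for the early and the late arrays. CN-R replicate 1 holds the highest value of 76.9% of the members and LP-R replicate 4 the lowest of 80.8%.

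After the 8 further weeks most varying members had a lower mean in LP-R. CN-R replicate 1 held most of their highest values and LP-R replicate 4 most of their lowest. Rank products called 1 of 33 members higher, Jund (3.03%, against 0.422% of all genes), and 4 lower, Fos, Klf2, Klf10 and Amotl2 (12.1%, against 0.267% of all genes), with 28 not called. By limma 0 members passed an adjusted p of 0.05 (0% of all genes passed), and 1 varying member, Klf10, had an unadjusted limma p under 0.05. Of the 26 varying members 24 had a lower mean in LP-R, with a median change of −0.24 and a range from −1.06 to 0.16. Over all 1755 varying genes the median was −0.02 and 32.8% had a higher mean. In 26 of 26 members the widest range within a diet exceeded the change, as in 98.8% of all varying genes. Klf10 and Amotl2 lay wholly below the controls (3.42% of all varying genes did) and Jund wholly above (0.57%).

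CN-R replicate 1 held the highest value of 20 of the 26 varying members (76.9%, against 17.9% of all varying genes), and LP-R replicate 4 the lowest value of 21 (80.8%, against 34.3%). CN-R replicate 1 was above CN-R replicate 2 for 24 members and above CN-R replicate 4 for 24, and LP-R replicate 3 was above LP-R replicate 4 for 25. The median deviation of the members was 0.51 on CN-R replicate 1, −0.03 and −0.10 on CN-R replicates 2 and 4, and 0.04, 0.00, −0.10 and −0.25 on LP-R replicates 1 to 4. Over all varying genes the late medians lay between −0.049 on LP-R replicate 4 and 0.018 on CN-R replicate 1. Without CN-R replicate 1 rank products called 0 members lower and 2 higher, Ier3 and Jund (0.00703% and 0.464% of all genes). Without both CN-R replicate 1 and LP-R replicate 4 the median change of the members was 0.02, and 3 were called higher and 0 lower (0.19% and 0.00703% of all genes). Both arrays were picked for their extreme values. Leaving out the highest control and the lowest restricted array raises the change by construction, so this is no test.

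Same-numbered late arrays deviated together over all varying genes, but weakly and not over the members for number 2 (r −0.182). Unmatched arrays did so too. LP-R replicate 1 with CN-R replicate 2 had r 0.246 over all varying genes, above numbers 1 and 2. LP-R replicate 3 with CN-R replicate 1 had r 0.745 over the members, above every matched pair. With the numbers as a block, which drops LP-R replicate 3 for want of a partner, rank products called 0 members higher and 10 lower (0.169% and 0.71% of all genes): Amotl2, Dusp1, Fos, Ier5, Jun, Klf10, Klf2, Klf4, Sik1 and Zfp36. This fit keeps both CN-R replicate 1 and LP-R replicate 4. With the probe sets centred before the permutation 1 member was called higher and 8 lower (0.225% and 0.682% of all genes). The study reported more genes lower than higher in LP-R. Here the main run called 60 genes higher and 38 lower, and the centred run 32 higher and 97 lower.

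**Figure D4:**
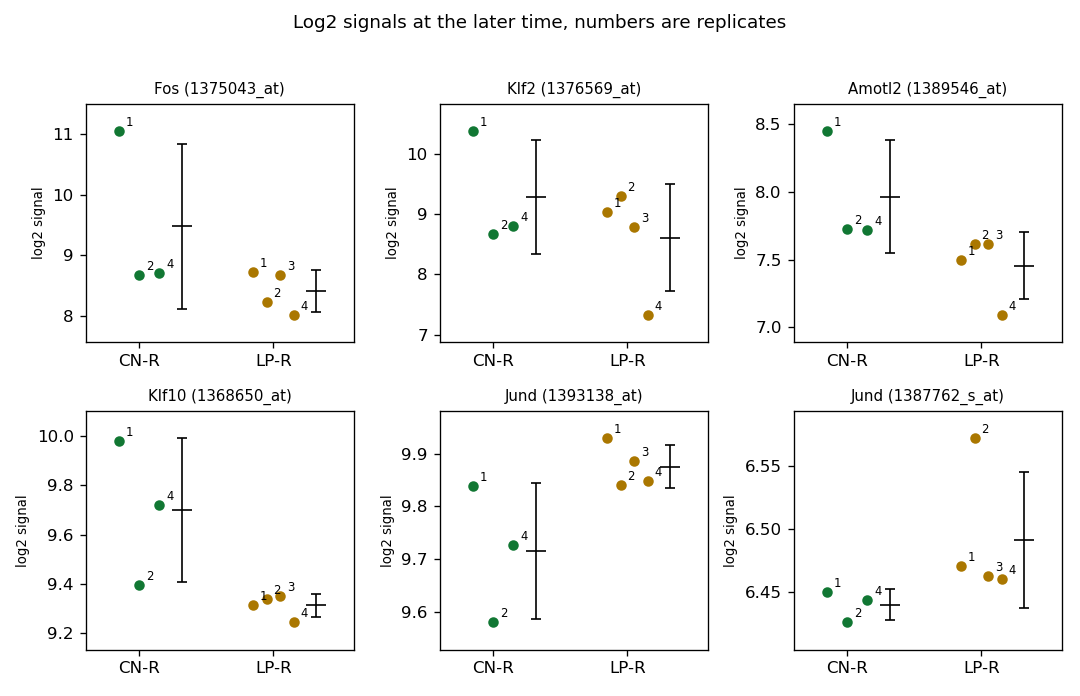
Log2 signal of Fos, Klf2, Amotl2, Klf10 and both Jund probe sets on each CN-R and LP-R array. Points carry the replicate number, and the bar and whisker give the mean ± SD (n = 3 CN-R and n = 4 LP-R). CN-R replicate 1 stands at 11.04 for Fos and 10.38 for Klf2, above every other late array.

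Fos had the largest change of the members. It read 11.04, 8.67 and 8.71 in CN-R replicates 1, 2 and 4 and 8.72, 8.23, 8.68 and 8.02 in LP-R replicates 1 to 4. The 1 high value is CN-R replicate 1, and the other 2 CN-R rats lay within the LP-R range. The means of 9.47 ± 1.36 (SD, n = 3) and 8.41 ± 0.34 (SD, n = 4) differed 2.09-fold, by −1.06 on the log2 scale (SE 0.80, pfp 0.01, exact permutation p = 0.143, limma adjusted p = 0.986). Without CN-R replicate 1 the change was −0.28 and was not called (pfp 0.491).

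Other AP-1 subunits shared the high value of that rat without a call. Jun read 10.79, 10.15 and 10.29 in CN-R and 10.21, 10.15, 10.10 and 9.98 in LP-R, so that LP-R replicate 1 reached the CN-R range (change −0.30, SE 0.20, exact permutation p = 0.0571). Fosb and Junb had changes of −0.21 and −0.28, with CN-R replicate 1 highest for both.

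Jund differed from the other AP-1 subunits in direction. It read 9.84, 9.58 and 9.73 in CN-R and 9.93, 9.84, 9.89 and 9.85 in LP-R, and every LP-R rat was above every CN-R rat, although LP-R replicate 2 and CN-R replicate 1 agree to the second decimal. The means of 9.71 ± 0.13 (SD, n = 3) and 9.88 ± 0.04 (SD, n = 4) differed 1.12-fold, by 0.16 on the log2 scale (SE 0.08, pfp 0.0151, exact permutation p = 0.0286, limma adjusted p = 0.969). The dimmer Jund probe set read 6.45, 6.43 and 6.44 in CN-R and 6.47, 6.57, 6.46 and 6.46 in LP-R, with no overlap and a change of 0.05 (SE 0.03, pfp 0.0745, exact permutation p = 0.0857). The call was lost without any 1 of the LP-R arrays and with the replicate block (0.16, pfp 0.0688), and it remained without each CN-R array.

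Klf10, a factor induced early by TGF-β, read 9.98, 9.40 and 9.72 in CN-R and 9.31, 9.34, 9.35 and 9.24 in LP-R. The LP-R rats lay close together and below all 3 controls. The means of 9.70 ± 0.29 (SD, n = 3) and 9.31 ± 0.05 (SD, n = 4) differed 1.31-fold, by −0.39 on the log2 scale (SE 0.17, pfp 0.0227, exact permutation p = 0.0286, limma adjusted p = 0.969). Without CN-R replicate 1 the change was −0.25 (pfp 0.286), and the call was also lost without CN-R replicate 2 or 4. Amotl2 read 8.45, 7.73 and 7.72 in CN-R and 7.50, 7.62, 7.61 and 7.09 in LP-R, also below all controls. Its means of 7.97 ± 0.42 (SD, n = 3) and 7.45 ± 0.25 (SD, n = 4) differed 1.42-fold, by −0.51 on the log2 scale (SE 0.27, pfp 0.0143, exact permutation p = 0.0286, limma adjusted p = 0.975). Without CN-R replicate 1 the change was −0.27 (pfp 0.285), and the call was lost without CN-R replicate 2 or 4 too.

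Klf2, a factor that blood flow induces in endothelium, read 10.38, 8.67 and 8.80 in CN-R and 9.03, 9.31, 8.78 and 7.33 in LP-R. CN-R replicate 1 was highest and LP-R replicate 4 lowest, and the other 5 rats lay between 8.67 and 9.31. The change was −0.67 (SE 0.70, 1.59-fold, exact permutation p = 0.514), at the pfp limit of 0.05, and the call was lost with quantile normalization. The change was −0.13 without CN-R replicate 1 and −0.24 without LP-R replicate 4, neither of them called, and 0.30 and called higher without both (pfp 0.0338). Leaving out both, which were picked for their extreme values, raises the change by construction. The call of Klf2 was also lost without CN-R replicate 2 or 4. Klf4 followed the same arrays, with 9.80 on CN-R replicate 1 and 7.43 on LP-R replicate 4 (change −0.54, SE 0.55, not called).

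The remaining members had late changes from −0.42 for Dusp1 to 0.06 for Homer1 and were not called. Of the members called in the early comparison, Egr1 read 9.07, 8.86 and 8.41 in CN-R and 8.57, 8.95, 8.46 and 8.07 in LP-R (change −0.27, SE 0.26). Myc read 7.07, 6.85 and 6.58 in CN-R and 7.18, 6.70, 6.65 and 6.64 in LP-R (change −0.04, SE 0.19). The highest Egr1 value was on CN-R replicate 1 and the highest Myc value on LP-R replicate 1. Klf6 read 8.85, 8.29 and 8.33 in CN-R and 8.29, 8.38, 8.34 and 7.98 in LP-R (change −0.24, SE 0.20), and Ier5 read 8.50, 7.62 and 7.61 in CN-R and 7.89, 7.52, 7.60 and 7.27 in LP-R (change −0.34, SE 0.32). In both CN-R replicate 1 was highest and LP-R replicate 4 lowest.

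Zfp36 read 7.85, 7.59 and 7.15 in CN-R and 7.50, 7.39, 7.30 and 6.95 in LP-R (change −0.24, SE 0.24), again between those arrays. Nfkbia read 8.21, 8.14 and 7.98 in CN-R and 8.14, 8.21, 7.89 and 7.81 in LP-R (change −0.10, SE 0.12), and the groups overlapped. Rgs4 did not follow that order, at 7.78, 8.01 and 7.84 in CN-R and 7.82, 7.85, 7.77 and 7.99 in LP-R (change −0.02, SE 0.08). Plk2 was nearly constant, at 7.48 in both groups. Tiparp read 8.35, 8.33 and 8.22 in CN-R and 8.48, 8.46, 8.14 and 8.07 in LP-R (change −0.01, SE 0.11), with LP-R on both sides of the controls, and Homer1 read 9.73, 9.80 and 9.75 in CN-R and 9.96, 9.92, 9.81 and 9.59 in LP-R (change 0.06, SE 0.09). Jund was the 1 member called in both comparisons, higher in each, and 16 members were called in neither.

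**Figure D5:**
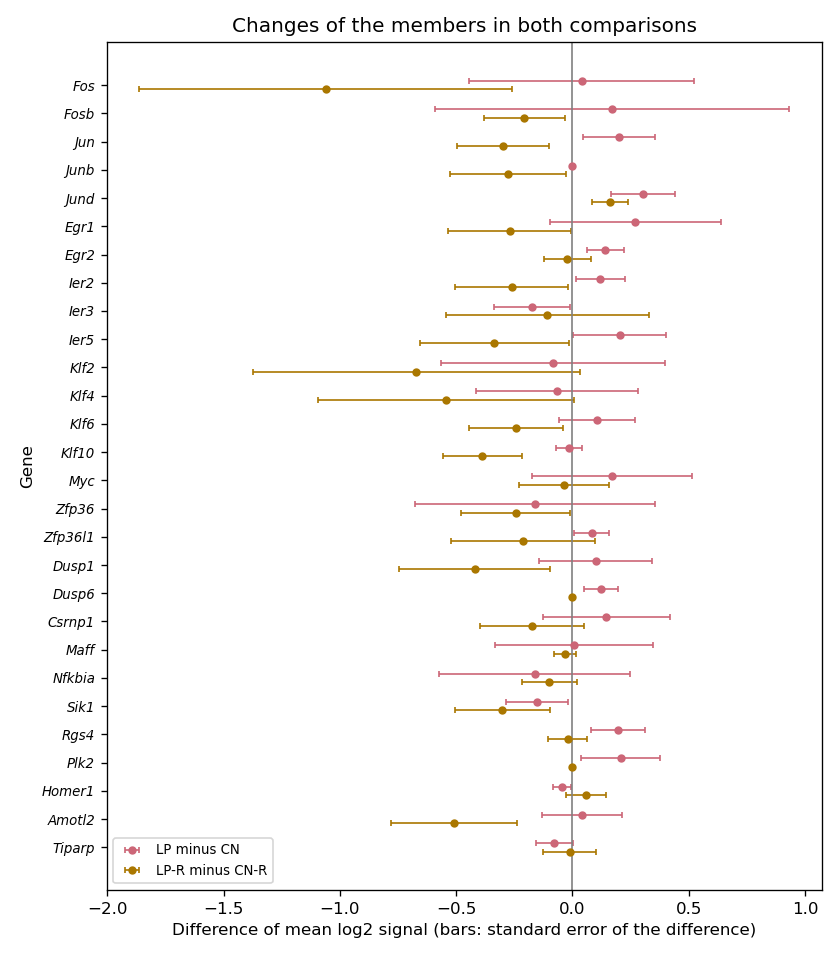
Change of each member that varied in either comparison, as the mean log2 signal in the restricted group minus that in its control group, with whiskers of 1 SE, for LP against CN and LP-R against CN-R. Early changes lie from −0.17 to 0.30 and late ones from −1.06 to 0.16, with Jund to the right of 0 in both.

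Whether a change differed between the 2 times was tested by exact permutation of the diets within each set of arrays. No probe set passed after adjustment over all 31042 (smallest adjusted p 0.689), although 1861 had an unadjusted p under 0.05. Jun had the smallest p among those named here, with a change of 0.20 in LP and −0.30 in LP-R (exact permutation p = 0.0384, adjusted p = 0.828). For Klf10, Amotl2, Fos and Jund the exact permutation p were 0.0588, 0.109, 0.236 and 0.481.

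Other immediate and delayed early genes were a list of 54, of which 49 were measured. In LP, of these 49, 4 were called higher (Atf3, Ccn1, Ifrd1, Rrad) and 9 lower (Nr4a2, Nr4a3, Gadd45g, Errfi1, Nfil3, Cebpb, Cebpd, Klf9, Klf15), and the median change of the 33 that varied was −0.04. Of all genes 2.54% were called higher and 2.48% lower. Nr4a2, an orphan nuclear receptor, read 9.24 on CN replicate 1 and 8.27 on LP replicate 1, and 6.70 and 6.61 on replicates 4. In LP-R 2 were called higher (Nr4a3, Ccn1) and 4 lower (Atf3, Nr4a1, Nr4a2, Id3), and 25 of the 30 that varied had a lower mean, with a median of −0.17. Of all genes 0.422% were called higher and 0.267% lower. Nr4a2 read 9.43 on CN-R replicate 1 against 7.13 and 6.82 on the other CN-R arrays and 6.44 to 7.44 in LP-R. Id3, an inhibitor of bHLH factors, was below all controls in LP-R (change −0.30, exact permutation p = 0.0571).

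Of 62 kinases and transcription factors that induce these genes, 50 were measured. In LP 1 was called higher (Rps6ka2) and 4 lower (Rps6ka5, Crem, Camk2b, Mef2c), and in LP-R 0 were called higher and 1 lower (Crem, a CREB family member), with median changes of 0.04 and −0.02. The shares of all genes called higher and lower were 2.54% and 2.48% in LP and 0.422% and 0.267% in LP-R. Of 26 factors that act on AU-rich messages, 21 were measured and 0 were called in either comparison. Limma passed 0 genes of these lists.

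Markers of other cell types are given beside the members because several members are also expressed in vessels and blood cells, and their part in the results was not tested. Endothelium markers (6 of 7 measured ones varied) had mean log2 signals of 8.17 to 8.26 in CN and 8.28 to 8.47 in LP, without overlap, and 3 were called higher (Kdr, Tie1, Emcn). Of all genes 2.54% were called higher, and of single varying genes 5.98% lay wholly above the controls. Adipocyte markers (3 of 5 varied) ran from 8.08 to 8.53 and from 8.08 to 8.87, with Adipoq called higher. Leukocyte markers (2 of 9 varied) ran from 7.92 to 8.18 and from 8.04 to 8.17, with S100a9 called higher. Fibroblast and smooth muscle markers gave 1 lower call each, Col1a1 and Tagln (2.48% of all genes were called lower). In the late comparison the 2 endothelium markers that varied read 8.52 on CN-R replicate 1, 8.20 on each of the other CN-R arrays and 8.25 to 8.42 in LP-R. CN-R replicate 1 was also the highest CN-R array for smooth muscle (9.04 against 8.92 on each of the others, LP-R 8.71 to 8.98), fibroblast (10.57 against 10.53 and 10.37, LP-R 10.28 to 10.50) and Schwann cell markers (8.19 against 8.07 and 7.95, LP-R 7.92 to 8.01). The same held for Adipoq, the 1 adipocyte marker of 5 that varied late (7.06 against 6.91 and 6.65, LP-R 6.46 to 6.81). All 3 smooth muscle, 4 fibroblast and 2 Schwann cell markers that varied had a lower mean in LP-R, and 0 of them were called. The slow fiber markers ran from 12.09 to 12.38 in CN-R and from 11.92 to 12.32 in LP-R, with Myh7 called lower. For the skeletal muscle fiber markers (3 of 10 varied) CN-R replicate 1 was the lowest CN-R array. They read 13.03 there against 13.08 and 13.11, and 12.94 to 13.13 in LP-R, with Myh1 called higher. Lyz2, the 1 leukocyte marker that varied late, read 9.75, 9.63 and 9.64 in CN-R and 9.76 to 9.89 in LP-R and was called higher, and Hbb, of red blood cells, read 11.43, 12.14 and 11.44 in CN-R and 11.05 to 11.62 in LP-R. Of all genes 0.422% were called higher late and 0.267% lower.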

How the data were processed

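The authors deposited log2 signals per probe set, which per the paper's methods are FARMS summaries, and no further normalization was applied here. All 15 expression arrays were used, and 57 control probe sets were left out. Of the 31042 probe sets tested, 20826 carry 1 gene symbol, 436 several and 9780 none. The number of arrays limits the precision. CN-R replicate 3 and the methylation arrays were not analysed here.

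Rank products were computed over every pair of arrays (Python 3.11.15, numpy 2.4.6, pandas 2.3.3, scipy 1.17.1), with seed 1 and values permuted 100 times within each array. limma 3.58.1 ran in R 4.3.3 on each comparison, with Benjamini-Hochberg adjustment over all probe sets. Both were run on simulated data with planted changes larger than any early change of the members. The simulated noise was independent between probe sets, so that run does not cover members that deviate together on single arrays. Figures were drawn with matplotlib 3.10.9. The members, lists and tests were chosen with earlier results of these data known. Values on every array were planned for members called by rank products or without overlap of the groups, and from other lists the called genes and those of smallest limma p could be named. Fos (early), Jun (late), Klf4 and Hbb were added after their values were seen.

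Same-numbered late arrays deviated together across 1755 varying genes (r 0.126, 0.108 and 0.269 for numbers 1, 2 and 4, each over 0.1), so a replicate block is given beside the late results. The early arrays fell short for number 2 (r −0.0171) but correlated more for numbers 1 and 4 (r 0.578 and 0.449). The pairing comes only from the numbers in the labels and this check, and unmatched arrays correlated as much or more (LP-R 1 with CN-R 2, r 0.246, and LP-R 3 with CN-R 4, r 0.186). Alternatives were other normalizations, filters, thresholds and probe set rules, the block, leaving out each array and CN-R replicate 4 set in LP-R. Centring before the permutation, pairs within replicate numbers and leaving out CN-R replicate 1 with LP-R replicate 4 were added after the data were seen.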

Additional observations from a re-analysis of the deposited data

Results flagged for a closer look

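Single rats stood far from the others of their group in 5 cases, judged by the gap to the nearest rat relative to the range of the group. In CN, Klf6 was lowest on replicate 4 at a log2 signal of 9.06, with the other rats at 9.40 to 9.45. In LP, Tiparp was lowest on replicate 3 at 8.60, with the others at 8.81 to 8.85. In LP-R, Fosb was highest on replicate 1 at 6.39, with the others at 6.23 to 6.25, and Myc was also highest on replicate 1, at 7.18 with the others at 6.64 to 6.70. Ier3 was lowest on LP-R replicate 4 at 7.70, with the others at 8.55 to 8.69. Chance gives about 1 in 20 such cases. They made up 3.70% of the varying members in CN and in LP (5.08% and 5.28% of all varying genes) and 11.5% in LP-R (4.73% of all varying genes). Groups of 3, and so CN-R, were not tested.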

How the results depend on the processing

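Counts of members are followed by the percent of all genes tested that were called. The early counts of 10 higher and 5 lower were 2 and 1 with the brighter probe sets only (0.987% and 1.78% of genes), 0 and 0 with the varying probe sets only (0.224% and 0.561%), 1 and 0 at a pfp up to 0.01 (0.457% and 0.893%) and 18 and 8 at a pfp up to 0.1 (4.45% and 3.51%). Without 1 array in turn they ran from 1 to 13 (0.57% to 3.19%) and from 0 to 9 (0.64% to 3.09%). Quantile normalization and median centring gave 10 and 5 again. Same-numbered early arrays correlated unevenly, at r 0.578, −0.0171, 0.279 and 0.449 for numbers 1 to 4 over all varying genes. Over the members r was 0.881, −0.592, 0.387 and 0.878. With these numbers as a block the counts were 7 and 5 (3.48% and 2.55%), and 0 by limma. The late counts of 1 higher and 4 lower were 0 and 2 with the brighter probe sets only (0.271% and 0.195%), 0 and 0 with the varying ones only (0.144% and 0.048%), 0 and 10 with the replicate block (0.169% and 0.71%), 2 and 1 with CN-R replicate 4 counted as LP-R (1.5% and 0.0633%), 3 and 0 without both CN-R replicate 1 and LP-R replicate 4 (0.19% and 0.00703%), and 0 and 1 at a pfp up to 0.01 (0.127% and 0.0492%). At a pfp up to 0.1 the lower count was 9 (0.823%), and with centred probe sets it was 8 (0.682%). Quantile normalization ended the late call of Klf2 (1 higher and 3 lower), and median centring gave 1 and 4 again. Without 1 array in turn the late counts ran from 0 to 2 (0.0985% to 0.577%) and from 0 to 8 (0.00703% to 0.64%). Limma called 0 members in every setting run.

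The median change ran from −0.017 (without LP replicate 2) to 0.18 early and from −0.37 to −0.06 late without 1 array in turn. Late it was 0.024 without both arrays named above, which were picked for their extreme values. The share of members lowest on LP-R replicate 4 was 53.8% under median centring, and the cause was not tested. Without 1 array in turn the early changes of Fosb (−0.19 to 0.60), Homer1 at 1370454_at (−0.067 to 0.40), Myc (−0.00127 to 0.34), Nfkbia (−0.45 to 0.036) and Zfp36 (−0.55 to 0.091) changed sign, and late Klf2 was 0.30 without both arrays. Over all settings, single probe sets kept direction and side of the threshold in 222 cases, lost the call in 130 and changed sign in 13. With 3 or 4 arrays a group, differences that are small beside the spread between rats can be missed.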
